A study of Mus musculus with 6 samples.

Results

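The collagen chains are the genes that encode the polypeptides of the collagen proteins, and they were taken as every gene of the count table whose symbol is Col, a type number, a and a chain number (Col1a1, Col4a3 and so on). This rule found 44 of the 47069 genes of the table, and 36 of the 44 passed edgeR's default filter on low counts, as did 17037 genes in all. The study asked how a deletion in Zpbp2, a gene of the asthma-associated region that also holds Ormdl3, alters the lung transcriptome. Lungs of adult mice were taken at ZT10, which is 10 h after lights on in a cycle of equal light and dark phases, from 3 wild-type (WT) mice, WT4 to WT6, and 3 Zpbp2 KO mice, KO4 to KO6. The WT mice were C57BL/6J. The KO mice were of the B6.129S7-Zpbp2tmZuk/Mmjax strain, in which exons 1 to 3 of Zpbp2 are deleted, with a C57BL/6J background. Both genotypes were bred and kept in the same colony and received no treatment. The labels do not state the sex of these 6 mice.

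Collagens are built from 3 chains wound into a triple helix. Fibrillar collagens (types I, II, III, V, XI, XXIV and XXVII) assemble into the fibres that give tissue its tensile strength, and type III is abundant beside type I in soft, distensible organs such as the lung. Type IV forms the sheet-like network of basement membranes, including the thin membrane shared by alveolar epithelium and capillary, and type VI forms beaded filaments around cells. Each chain is hydroxylated and folded in the endoplasmic reticulum, secreted, trimmed and cross-linked before it is part of the matrix, so that the mRNA is only the first step.

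The libraries held 19981428 to 46796908 counted reads, and KO5 was the deepest. At these depths 3 counts amount to between 0.0629 and 0.148 CPM, which are counts per 1000000 counted reads after scaling of the library sizes, a limit that covers counting error only. That scaling is TMM throughout. Fold changes are given on the log2 scale for KO against WT mice with their standard error (SE). Zpbp2 itself had 1, 2 and 2 counts in the WT mice and 0 in each KO mouse, which is under the limit of 3 counts, so that its level could not check the labels. Xist had 15033 to 47369 counts in the 6 mice. The Y-linked genes Ddx3y, Kdm5d, Uty and Eif2s3y had 9, 7, 6 and 2 counts in KO5. In the other mice they had 0, apart from 1 count of Uty in WT5. The first principal component, with 43.5% of the variance of log2 CPM, separated the KO from the WT mice.

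None of the 36 tested chains passed an adjusted p-value of 0.05 in edgeR (quasi-likelihood test, adjusted by Benjamini-Hochberg over all 17037 genes). In the same fit 455 genes were lower in KO mice, which is 2.67% of those tested, and 634 were higher, which is 3.72%. With a log2 fold change of at least 1.5 as well, 109 genes (0.64%) passed and no chain did. DESeq2 called 2 chains lower, Col3a1 and Col5a2 (5.56% of the chains), where it called 4.46% of 17347 genes lower and 6.09% higher. At an unadjusted edgeR p under 0.05 there were 9 lower chains (25.0%, against 11.6% of all genes) and 2 higher chains (5.56%, against 13.9%). The 9 were Col3a1, Col5a2, Col4a3, Col6a1, Col6a2, Col6a3, Col7a1, Col8a2 and Col23a1, and the 2 were Col6a6 and Col26a1.

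The abundant chains mostly had small negative fold changes. Of the 36 tested chains, 24 (66.7%) had a log2 fold change below 0, compared with 49.4% of all genes, and their median was -0.13 against 0.003 over all genes. Without WT5 the median of the chains was -0.07. Among the 23 chains with a mean of at least 20 CPM, 19 (82.6%) were below 0, where 57.0% of 8622 genes at that level were. The median was -0.15 for these chains and -0.03 for these genes. Of the 13 chains under 20 CPM, 8 had a fold change above 0. The KO values lay below all WT values for 8 chains (22.2%, against 15.6% of all genes), namely Col3a1, Col5a2, Col6a1, Col6a2, Col8a2, Col16a1, Col20a1 and Col23a1. The KO values lay above all WT values for 1 chain, Col26a1 (2.78%, against 17.0%). The chains are not independent of one another, so these shares are descriptions and were not tested.

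The precision of the test allows a statement on size. The 95% interval of the log2 fold change lay between -1 and 1 for 29 of the 36 chains. For the 23 chains of at least 20 CPM the SE was between 0.0470 and 0.254, the lowest bound of any interval was -0.69 and the highest was 1.10. The latter belonged to Col15a1, and without it the highest was 0.34. The plot of fold changes by class shows that the wide intervals belong to chains of low count, such as Col6a4.

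**Figure D1:**
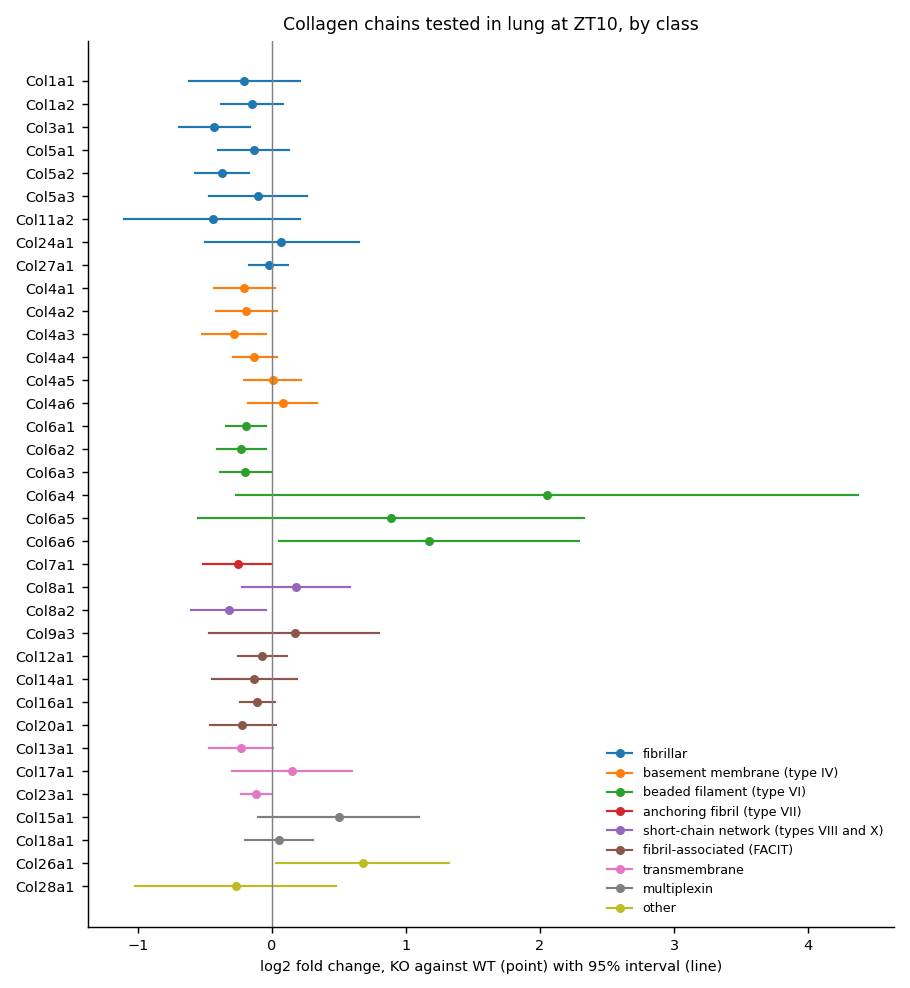
Log2 fold change of KO against WT mice (x axis; point) with its 95% interval (line) for each of the 36 tested collagen chains (y axis), coloured by class. Most points lie between -0.44 and 0.18 with narrow intervals, and Col6a4, Col6a5 and Col6a6 lie farther to the right with wide ones.

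As a share of all counted reads, the 44 chains took 0.382%, 0.430% and 0.371% in WT4, WT5 and WT6. They took 0.382%, 0.344% and 0.337% in KO4, KO5 and KO6. The means were 0.394% ± 0.0314 (SD, n = 3) and 0.354% ± 0.0242 (SD, n = 3), and the groups overlapped because KO4 lay within the WT values. KO4 also stood closer to the WT mice chain by chain: of the 23 chains of at least 20 CPM, 8 were below all WT mice in KO4, 19 in KO5 and 12 in KO6. Relative to the WT mean, the median of these 23 chains on the log2 scale was -0.04, 0.11 and -0.05 in WT4, WT5 and WT6, and -0.06, -0.20 and -0.16 in KO4, KO5 and KO6. WT5 was thus the highest of the WT mice and KO5 the lowest of the KO mice. In whole lung, fewer cells of a type and less RNA per cell cannot be told apart.

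Levels of different chains were compared per kilobase of merged exons (RPKM), in WT mice. Col4a1, at 95.1 ± 7.72 RPKM (SD, n = 3), and Col4a2, at 90.2 ± 8.62 RPKM, stood first, and their ranges overlapped. Both are the ubiquitous chains of type IV, and with Col6a1 (60.5 ± 2.62 RPKM) they lay above every other chain in each WT mouse on this scale. Col3a1 (28.4 ± 2.45 RPKM), Col1a2 (27.0 ± 2.91), Col1a1 (26.8 ± 6.13), Col4a3 (26.6 ± 2.62) and Col6a2 (23.6 ± 0.880) followed and were not separated beyond their ranges from one neighbour to the next. The order within this group depended on the length used. With the length of the longest transcript in place of merged exons, Col1a2 was at 62.6 RPKM, Col3a1 at 50.1 RPKM, Col6a2 at 39.9 RPKM and Col1a1 at 29.7 RPKM. The plot of levels shows both scales.

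**Figure D2:**
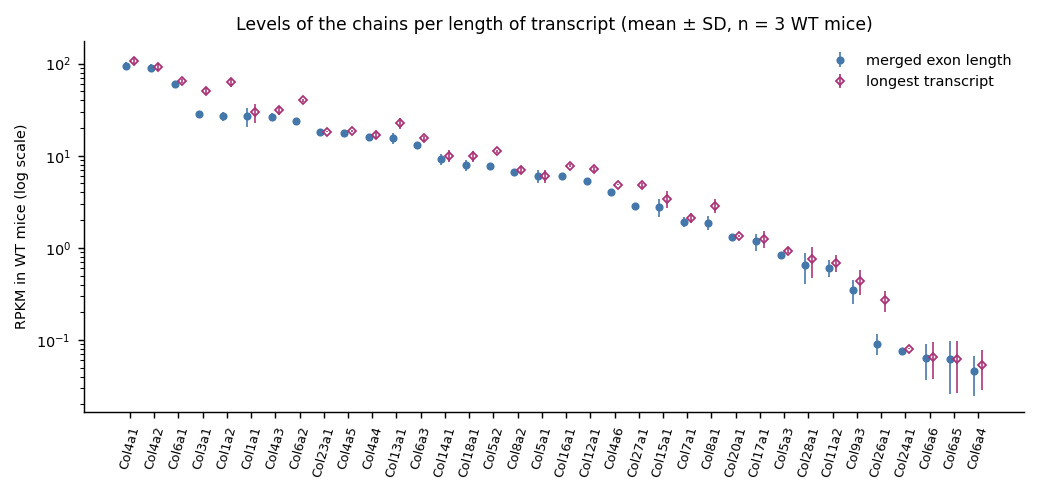
Level of each tested chain in WT mice as RPKM (y axis, log scale), by merged exon length (filled circles) and by the longest transcript (open diamonds), as mean ± SD of 3 mice, with the chains ordered by the first (x axis). Col4a1 and Col4a2 stand first on both scales, while Col3a1, Col1a2 and Col6a2 move up when the longest transcript is used.

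In the fibrillar class 8 of 9 tested chains had a negative fold change, with a median of -0.15, and none passed the adjusted threshold in edgeR. The median was -0.06 without WT5, -0.09 without KO5, and -0.24, -0.23 and -0.22 without KO4, WT4 and WT6. Col3a1 encodes the single chain of the type III homotrimer. It had 253, 301 and 282 CPM in WT4, WT5 and WT6, and 239.6, 183 and 201 CPM in KO4, KO5 and KO6. Every KO value was below every WT value. The log2 fold change was -0.43 (SE 0.111, 95% interval -0.69 to -0.16, edgeR adjusted p = 0.0671). Over the 15 alternatives the fold change stayed between -0.54 and -0.34 and the adjusted p ranged from 0.00228 (DESeq2) to 0.213 (edgeR without WT5), and 3 alternatives passed the threshold.

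Col5a2 encodes a chain of type V collagen, a minor fibrillar collagen that is built into type I fibrils and limits their width. It had 71.4, 75.04 and 74.6 CPM in WT4 to WT6, and 65.2, 53.4 and 52.5 CPM in KO4 to KO6. The groups did not overlap, and its log2 fold change was -0.37 (SE 0.0866, 95% interval -0.57 to -0.17). Its edgeR adjusted p of 0.0515 was the lowest of all chains and missed the threshold. It passed in 5 of 15 alternatives, with adjusted p from 0.00411 (DESeq2) to 0.176 (edgeR without WT5). Without KO4, the KO mouse nearest to the WT mice, edgeR called 3 chains lower: Col5a2 (log2 fold change -0.48, adjusted p = 0.0128), Col3a1 (-0.54, 0.0288) and Col6a2 (-0.31, 0.0354).

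Col3a1 and Col5a2 are neighbours. In GRCm38, Col3a1 (ENSMUSG00000026043) spans 45311538 to 45349706 of chromosome 1 on the plus strand and Col5a2 (ENSMUSG00000026042) on the minus strand from 45374321 to 45503282, so that the genes end towards each other across 24.6 kb. The sequence before the start of Col3a1 is shown because this chain had the largest fall among the abundant ones. It covers the 250 bases before the RefSeq start, chr1:45311288-45311537 on the plus strand of GRCm38.p6, 5′ to 3′, and overlaps no annotated exon. The capitals mark TATAAA, which begins 117 bases before the start.
Col3a1 upstream: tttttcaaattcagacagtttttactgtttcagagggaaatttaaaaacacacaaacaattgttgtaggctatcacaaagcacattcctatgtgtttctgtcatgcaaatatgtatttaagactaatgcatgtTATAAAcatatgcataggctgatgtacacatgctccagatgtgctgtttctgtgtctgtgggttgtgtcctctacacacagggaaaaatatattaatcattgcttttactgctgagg

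RefSeq promoter sequences were available for 35 of the 44 chains, in 38 windows, and Col5a2 was not among them. Searched on both strands, TATAAA was in 5 of the 38 windows (13.2%) and in 12.4% of the 32851 windows of all genes. CCAAT was in 13 (34.2%) against 33.8%, and GGGCGG in 22 (57.9%) against 32.7%. CACGTG, the E-box that the clock proteins CLOCK and BMAL1 bind, was in 0 of 38 against 6.02%. These are matches of letters in 250 bases and were not tested.

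The chains of type I, the main fibre of the lung's connective tissue, were more variable between mice. Col1a1 had 143, 221 and 164 CPM in WT4 to WT6 and 176, 127 and 156 CPM in KO4 to KO6. Col1a2 had 299.8, 372 and 333 CPM in the WT mice and 327, 273.5 and 305 CPM in the KO mice. Both groups overlapped, with WT5 highest and KO5 lowest of all 6 mice for either chain. The log2 fold changes were -0.21 (SE 0.178, edgeR adjusted p = 0.517) for Col1a1 and -0.15 (SE 0.0983, adjusted p = 0.385) for Col1a2. Without WT5 they were -0.01 and -0.07, and without KO5 both were -0.09.

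Of the other type V chains, Col5a1 had 47.4, 60.2 and 45.1 CPM in WT4 to WT6 and 49.2, 44.1 and 45.8 CPM in KO4 to KO6. Col5a3 had 5.68, 6.04 and 5.37 CPM in the WT mice and 6.31, 5.12 and 4.49 CPM in the KO mice. Both groups overlapped, with log2 fold changes of -0.13 (edgeR adjusted p = 0.499) and -0.10 (adjusted p = 0.732). That of Col5a1 was 0.00 without WT5, and that of Col5a3 was 0.00 without KO6. Col11a2, a chain of the cartilage collagen type XI, had the most negative fold change of any chain, -0.44 (SE 0.279, adjusted p = 0.368). It rested on 4.15, 5.08 and 3.33 CPM in the WT mice and 2.44, 4.26 and 2.32 CPM in the KO mice, and KO5 lay within the WT values. Without KO5 the fold change was -0.81, and without WT5 or KO6 it was -0.29. Col24a1 and Col27a1 had log2 fold changes of 0.07 and -0.02 (adjusted p = 0.886 and 0.859).

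The type IV chains come in gene pairs that start next to each other on opposite strands. Col4a1 and Col4a2 on chromosome 8 overlap by 22 bp at their starts, Col4a3 and Col4a4 on chromosome 1 are 71 bp apart, and Col4a5 and Col4a6 on the X chromosome are 1.31 kb apart. The whole stretch between Col4a4 (ENSMUSG00000067158) and Col4a3 (ENSMUSG00000079465) is shown because both genes start at its ends, and it holds none of the 4 motifs. It is chr1:82586850-82586920 of GRCm38.p6, given 5′ to 3′ on the minus strand, that of Col4a4, and taken from RefSeq.
Col4a4-Col4a3 gap: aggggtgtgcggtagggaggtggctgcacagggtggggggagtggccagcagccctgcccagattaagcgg

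Of the 6 type IV chains 4 had a negative fold change, the class median was -0.16, and the groups overlapped for each of the 6. Col4a1 had 687, 776 and 668 CPM in WT4 to WT6 and 669, 632 and 543 CPM in KO4 to KO6. Its partner Col4a2 had 595, 655 and 541 CPM in the WT mice and 571, 532 and 469 CPM in the KO mice. These chains, which form the general basement membrane network, had log2 fold changes of -0.21 (SE 0.0961, edgeR adjusted p = 0.231) and -0.19 (SE 0.0982, adjusted p = 0.279).

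Col4a3 and Col4a4, with Col4a5, form the specialised network of glomerular and alveolar basement membranes. Col4a3 had 256, 294 and 244 CPM in WT4 to WT6 and 248, 205 and 203 CPM in KO4 to KO6. Col4a4 had 174, 179.5 and 153 CPM in the WT mice and 160.05, 151 and 154 CPM in the KO mice. KO4 was within the WT values for both chains, and KO6 was within them for Col4a4 as well. The log2 fold changes were -0.28 (SE 0.103, edgeR adjusted p = 0.149) and -0.13 (SE 0.0695, adjusted p = 0.308). Of the exons of Col4a3, 5.65% of the length overlaps C430014B12Rik on the other strand, a gene with 7 to 28 counts per mouse.

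Col4a5 had 121, 122 and 117 CPM in WT4 to WT6 and 138, 106 and 117 CPM in KO4 to KO6. Col4a6, whose product pairs with that of Col4a5 in other basement membranes, had 31.8, 32.3 and 32.8 CPM in the WT mice and 40.2, 29.5 and 32.8 CPM in the KO mice. For both, KO4 was the highest and KO5 the lowest of the 6 mice. The log2 fold changes were 0.01 (SE 0.0926, 95% interval -0.21 to 0.22) and 0.08 (SE 0.111, 95% interval -0.18 to 0.34), and without KO4 they were -0.10 and -0.06.

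Type VI divided into abundant and scarce chains. Col6a1, Col6a2 and Col6a3 encode the chains of the classical type VI heterotrimer. Col6a1 had 267, 275 and 252 CPM in WT4 to WT6 and 248.5, 219.7 and 228 CPM in KO4 to KO6. Col6a2 had 191, 205 and 193 CPM in the WT mice and 186, 155 and 162 CPM in the KO mice. Col6a3 had 149.7, 169 and 151 CPM in the WT mice and 151, 131 and 128 CPM in the KO mice. The groups did not overlap for Col6a1 and Col6a2, and KO4 lay within the WT values for Col6a3. Their log2 fold changes were -0.19 (SE 0.0650), -0.23 (SE 0.0774) and -0.20 (SE 0.0813), with edgeR adjusted p of 0.125, 0.126 and 0.185.

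Col6a4, Col6a5 and Col6a6 encode alternative chains related to that of Col6a3, and lie in a row on the minus strand of chromosome 9 between 105687809 and 106096783. Their levels in the WT mice were under 1 CPM. Col6a4 had 0.604, 0.288 and 0.291 CPM in WT4 to WT6 and 0.147, 3.69 and 0.642 CPM in KO4 to KO6. Col6a5 had 0.966, 0.383 and 0.388 CPM in the WT mice and 0.489, 1.89 and 0.593 CPM in the KO mice. Col6a6 had 0.604, 0.815 and 0.323 CPM in the WT mice and 0.929, 1.97 and 0.741 CPM in the KO mice. KO5 was the highest mouse for all 3 chains, with 176 counts of Col6a4, and the groups overlapped. The log2 fold changes were 2.05 (SE 0.988, edgeR adjusted p = 0.246), 0.89 (SE 0.611, adjusted p = 0.409) and 1.17 (SE 0.477, adjusted p = 0.179). Without KO5 they were 0.00, -0.10 and 0.56. The class median of 0.35 lies between these chains and the abundant 3, and was -0.19 when only genes with at least 10 counts in every library were kept and -0.13 without KO5.

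Among the remaining classes, Col7a1, the anchoring fibril chain below stratified and airway epithelium, had a log2 fold change of -0.25 (SE 0.107, edgeR adjusted p = 0.192). For type VIII, a short-chain network of vessels and some basement membranes, Col8a1 had 16.6, 15.8 and 11.7 CPM in WT4 to WT6 and 18.9, 17.4 and 13.6 CPM in KO4 to KO6. Its partner Col8a2 had 27.9, 29.7 and 32.6 CPM in the WT mice and 27.7, 20.4 and 24.4 CPM in the KO mice. The groups overlapped for Col8a1 (log2 fold change 0.18, adjusted p = 0.555) and not for Col8a2 (-0.32, SE 0.120, adjusted p = 0.152).

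The fibril-associated collagens, which sit on the surface of fibrils, had a median of -0.11 over 5 tested chains. Col14a1, a chain often used to mark a fibroblast population, had 61.4, 57.6 and 75.2 CPM in WT4 to WT6 and 69.6, 51.7 and 56.8 CPM in KO4 to KO6. The groups overlapped, and its log2 fold change was -0.13 (SE 0.135, edgeR adjusted p = 0.598), or -0.01 without WT6 and -0.26 without KO4. Col12a1, Col16a1 and Col20a1 had log2 fold changes of -0.07, -0.11 and -0.22, and Col9a3 had 0.17, with adjusted p of 0.603, 0.250, 0.254 and 0.747.

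Of the transmembrane collagens, which stay anchored in the cell surface, Col13a1 had 72.4, 80.4 and 61.9 CPM in WT4 to WT6 and 55.9, 62.9 and 63.7 CPM in KO4 to KO6. The groups overlapped, and the log2 fold change was -0.23 (SE 0.101, edgeR adjusted p = 0.205). Col23a1 had -0.12 (SE 0.0470, adjusted p = 0.160) with groups that did not overlap, and Col17a1, a chain of epithelial hemidesmosomes, had 0.15 (adjusted p = 0.668).

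The multiplexins Col15a1 and Col18a1 belong to vascular and epithelial basement membranes and were not lower. Col15a1 had 13.5, 20.75 and 18.7 CPM in WT4 to WT6 and 21.8, 34.3 and 18.3 CPM in KO4 to KO6. Col18a1, whose end is the source of endostatin, had 56.5, 62.4 and 47.5 CPM in the WT mice and 63.1, 53.8 and 55.7 CPM in the KO mice. Both groups overlapped. Their log2 fold changes were 0.50 (SE 0.254, edgeR adjusted p = 0.268) and 0.05 (SE 0.108, adjusted p = 0.810). KO5 was the highest mouse for Col15a1, whose log2 fold change was 0.18 without it.

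The remaining tested chains were Col26a1 (log2 fold change 0.68, SE 0.276, edgeR adjusted p = 0.180) and Col28a1 (-0.27, adjusted p = 0.649). The 8 chains that did not pass the filter were Col2a1, Col9a1, Col9a2, Col10a1, Col11a1, Col19a1, Col22a1 and Col25a1, with 0 to 20 counts per mouse. Col9a1 had 0 counts in all 6 mice, and Col2a1, the defining chain of cartilage, had 0 to 5. Of the 9 cartilage markers in the table, Acan, Matn1 and Epyc had at most 3 counts in any mouse and Matn3 at most 4. Hapln1, Comp and Sox9 had 3 to 28 counts, while Matn4 had 1381 to 3042 and Chad 556 to 960, so that part of the list was well above the limit of 3 counts.

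Partner chains were also compared as a ratio of counts within each library, which does not depend on the scaling. There were 8 pairs of chains of the same collagen type, and Col3a1 with Col1a1, which share fibrils. Over these 9 ratios the two-sided exact permutation test gave p from 0.2 to 0.8 (adjusted over all of them, 0.45 to 0.80). With 3 mice against 3 it cannot give a p below 0.1, and the groups overlapped for every ratio. The log2 ratio of Col4a1 to Col4a2 was 0.25 ± 0.0484 in WT and 0.23 ± 0.0189 in KO mice (SD, n = 3 each). That of Col6a3 to Col6a1 was -0.76 ± 0.0671 and -0.77 ± 0.0597. The largest difference was that of Col8a1 to Col8a2, -1.04 ± 0.379 in WT and -0.54 ± 0.310 in KO mice. The log2 ratio of Col3a1 to Col1a1 was 0.68 ± 0.206 and 0.45 ± 0.0814.

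**Figure D3:**
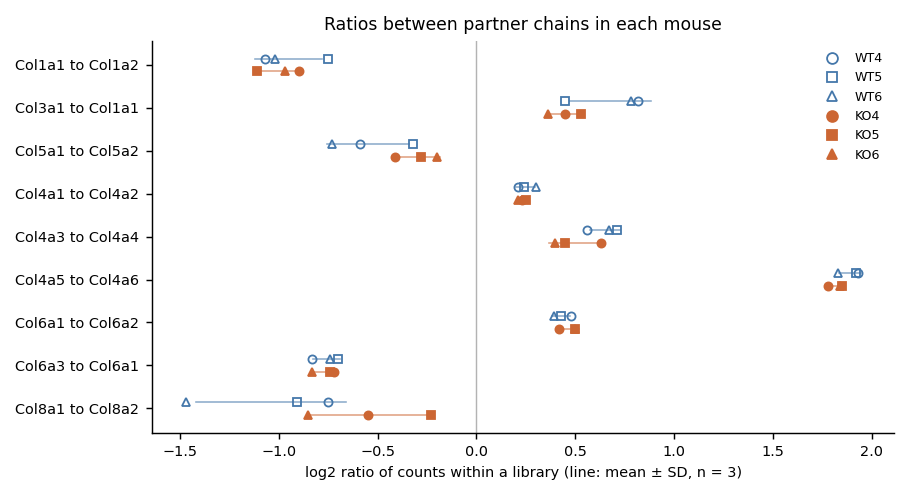
Log2 ratio of counts (x axis) between 2 partner chains (y axis) in each mouse, WT as open and KO as filled symbols, with a line for the mean ± SD of 3 mice. WT and KO values overlap for each of the 9 ratios, and over all 6 mice the values of Col4a1 to Col4a2 lie closest together.

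The genes that act on collagen were counted in 8 lists from the same fit. Of the 106 genes tested in these lists, 12 (11.3%) were called lower in KO mice, against 2.67% of all genes, and 1 (0.943%) was called higher, against 3.72%. The lists were chosen with earlier results of these data known, so these shares are descriptions and were not tested. Of the 12 lower calls, 5 were genes that hydroxylate or fold the chains. The number of calls depended on single mice: it was 5 without WT4, 0 without WT5, 3 without WT6, 19 without KO4, 9 without KO5 and 4 without KO6, against 13 with all mice.

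In collagen hydroxylation and folding 16 of 18 genes had a negative fold change (median -0.18) and 5 were called lower. Serpinh1, which encodes HSP47, a chaperone specific to collagen, had 353, 375 and 430.0 CPM in WT4 to WT6 and 217, 184 and 191 CPM in KO4 to KO6. Its log2 fold change was -0.97 (SE 0.0946, edgeR adjusted p = 0.00898) and the groups did not overlap. P4ha1 encodes the main catalytic subunit of prolyl 4-hydroxylase, the enzyme that makes the triple helix stable at body temperature. It had 153, 157 and 162 CPM in the WT mice and 86.9, 87.5 and 94.9 CPM in the KO mice. Its log2 fold change was -0.81 (SE 0.0545, adjusted p = 0.00466).

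The other catalytic subunits of prolyl 4-hydroxylase were lower as well. P4ha2 had 86.5, 97.3 and 101 CPM in WT4 to WT6 and 62.3, 57.6 and 57.9 CPM in KO4 to KO6 (log2 fold change -0.68, SE 0.0707, edgeR adjusted p = 0.00944). P4ha3 had 1.45, 1.39 and 1.65 CPM in the WT mice and 0.782, 0.608 and 0.741 CPM in the KO mice (-1.10, SE 0.206, adjusted p = 0.0309). The fifth call was the lysyl hydroxylase Plod1 (-0.44, SE 0.0707, adjusted p = 0.0235), which was named after its value was seen. P4hb, the shared subunit of these enzymes, had -0.10 (adjusted p = 0.440). P4ha1, P4ha2, P4ha3 and Serpinh1 kept a negative fold change in all 15 alternatives, and none of them was called without WT5. With a mouse left out, P4ha1, P4ha2 and Serpinh1 were each called in 5 of 6 fits, and P4ha3 in 1. DESeq2 called 5 genes of the list lower as well, with Plod2 in place of P4ha3.

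In procollagen processing and cross-linking 10 of 12 genes had a negative fold change (median -0.30) and 2 were called lower. Lox, the enzyme that cross-links collagen and elastin, had 36.4, 52.9 and 41.7 CPM in WT4 to WT6 and 27.7, 28.8 and 27.75 CPM in KO4 to KO6. Pcolce2, an enhancer of the enzyme that trims procollagen, had 297, 274 and 269 CPM in the WT mice and 213, 235 and 229 CPM in the KO mice. The groups did not overlap for either, and the log2 fold changes were -0.63 (SE 0.130) and -0.31 (SE 0.0634), both with an edgeR adjusted p of 0.0389. With a mouse left out, each was called in 1 of 6 fits.

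Among 10 collagen receptors Itga10, an integrin subunit, was called lower (log2 fold change -0.76, SE 0.156, edgeR adjusted p = 0.0390). Lair1, an inhibitory collagen receptor of leukocytes, was called higher (1.31, SE 0.155, adjusted p = 0.0120), with 8.17, 6.66 and 7.79 CPM in WT4 to WT6 and 18.1, 15.7 and 22.6 CPM in KO4 to KO6. The elastic fibre and fibronectin list had 2 of 16 called lower, Mfap2 (-0.34, adjusted p = 0.0314) and Efemp1 (-0.27, adjusted p = 0.0418). The TGF-beta list had 2 of 14 called lower, Smad7 (-0.39, adjusted p = 0.0445) and Skil (-0.33, adjusted p = 0.0207), which encode inhibitors of that pathway. DESeq2 called both lower as well, and called Tgfb1 of this list higher (edgeR log2 fold change 0.23, adjusted p = 0.0562). With a mouse left out, edgeR called Lair1 in 4 of 6 fits and Skil in 2. Itga10, Mfap2 and Smad7 were each called in 1 and Efemp1 in 0. No gene was called in edgeR among 11 genes of collagen breakdown, 8 fibril-associated proteoglycans and 17 other basement membrane genes. Of the collagen breakdown genes 3 were lower and 1 higher at an unadjusted p under 0.05, and DESeq2 called 2 lower and 1 higher. Of the other basement membrane genes 4 were lower at that unadjusted p, and DESeq2 called 2 lower. For the proteoglycans both counts were 0.

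**Figure D4:**
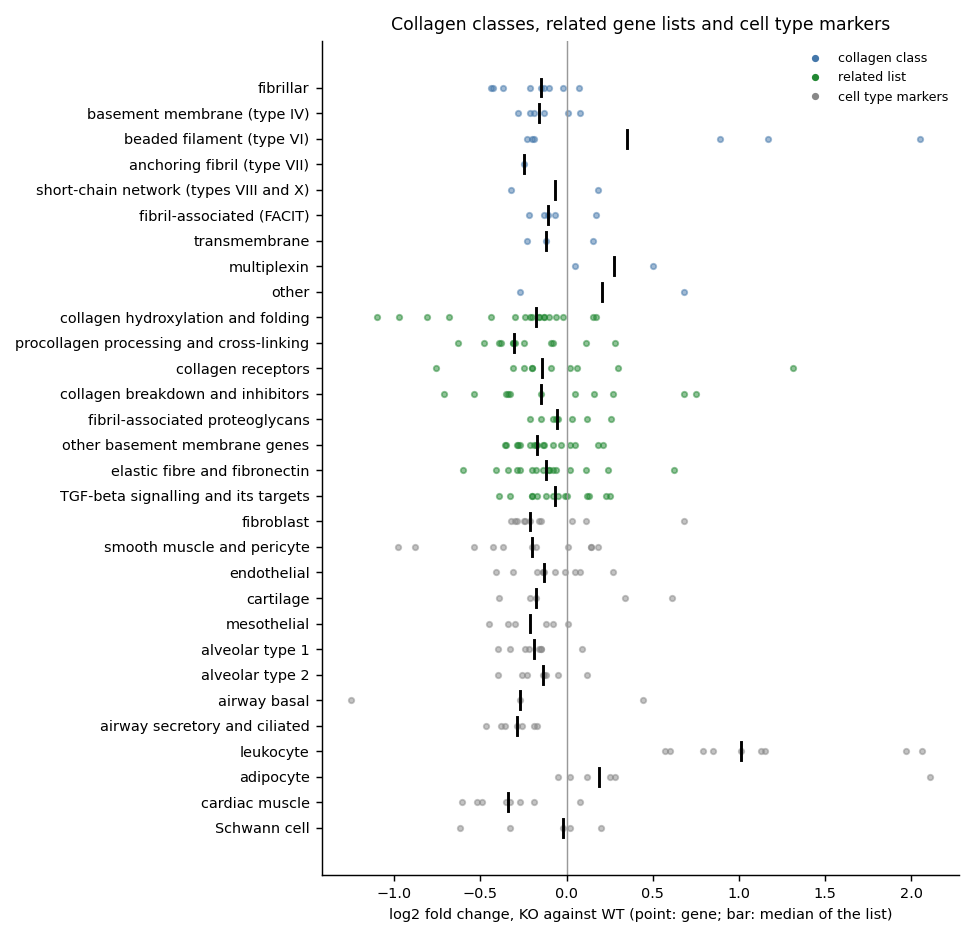
Log2 fold change of KO against WT mice (x axis) of every tested gene (point) in the collagen classes, the lists of related genes and the lists of cell type markers (y axis), with the median of each list as a bar. The collagen hydroxylation and folding genes reach farther below 0 than the collagen chains, and all 9 leukocyte markers lie above 0.

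Markers of the cells in the lung were counted beside the chains. For the 11 fibroblast markers the median log2 fold change was -0.21, with 8 below 0 and 3 above. EdgeR called 0 of them, with 3 lower and 1 higher at an unadjusted p under 0.05. DESeq2 called 1 lower (Pdgfra) and 1 higher (Ebf1). Their summed level was 3986 to 4716 CPM in WT and 3920 to 4668 CPM in KO mice. The medians were -0.20 for smooth muscle and pericyte, -0.13 for endothelial, -0.19 for alveolar type 1, -0.14 for alveolar type 2 and -0.21 for mesothelial markers. They were -0.29 for airway secretory and ciliated, -0.27 for airway basal, -0.34 for cardiac muscle, -0.18 for cartilage, -0.02 for Schwann cell and 0.18 for adipocyte markers. These last medians rested on 7, 3, 8, 5, 5 and 6 tested genes. The summed cardiac muscle level was 709, 1271 and 516 CPM in WT4 to WT6 and 305, 191 and 1410 CPM in KO4 to KO6. KO6 was thus the highest mouse for that sum and KO5 the lowest. Of the 8 alveolar type 1 markers edgeR called 1 lower (Rtkn2), DESeq2 called 4 lower, and 5 had KO values below all WT values. Over all genes the shares were 2.67%, 4.46% and 15.6%. DESeq2 also called lower 2 alveolar type 2 markers (Sftpa1, Sftpd) and 2 airway secretory and ciliated markers (Cyp2f2, Foxj1). It called all 9 leukocyte markers higher. EdgeR called Cldn5 of the endothelial, Dst of the airway basal and Prx of the Schwann cell markers lower, and Mbp of the Schwann cell markers higher. Of the 11 smooth muscle and pericyte markers, which include Acta2 and Tagln, edgeR called 0 (5 at an unadjusted p under 0.05) and DESeq2 called 5 lower. All 9 leukocyte markers had a positive fold change, with a median of 1.01 and 6 called higher, and their summed level was 415 to 493 CPM in WT and 695 to 1149 CPM in KO mice. The highest sum was that of KO5, the mouse in which 19 of the 23 abundant chains were below all WT mice. The part of these shifts in the values of the chains was not tested.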

How the data were processed

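RNA of whole lung was sequenced from 3 WT and 3 KO mice at ZT10 with a stranded mRNA kit. Per the labels and the methods, the authors trimmed the reads, aligned them to GRCm38 and counted them per gene, and they deposited raw counts for 47069 genes in 1 column per mouse without normalization. The submitters' processing notes name Trimmomatic 0.36, STAR 2.5.3a, Picard 2.9.0 and HTSeq 0.6.0. The annotation release and the strand setting of the counting are not given in the sources used here, so reads shared by overlapping genes on opposite strands are uncertain.

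The counts were tested in R 4.3.3 with edgeR 4.0.16 (quasi-likelihood test, TMM, filterByExpr with a minimum count of 10 and a minimum total of 15, Benjamini-Hochberg over all genes kept), without covariates. A gene was called at an adjusted p-value of at most 0.05. The SE is the log2 fold change divided by the square root of F. Samples were grouped by their titles, which name single mice by number. The alternatives of the closing section changed 1 choice at a time, except DESeq2 1.42.0, which also brought its own size factors and filter (17347 genes with an adjusted p). On simulated data (3 sets of 17037 genes, 200 of them at a log2 change of 2) the main test recovered 97.5% with 26 false calls over the 3 sets, DESeq2 96.8% with 45, and the test with a replicate block 97.3% with 13. The simulation gave every gene the same dispersion and did not pair mice. Its change was larger than that of any chain of at least 20 CPM, so it does not measure the power to call those chains.

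Positions and exon lengths came from GENCODE mouse release M21 (46574 of 47069 IDs placed), and promoters from RefSeq. Python 3.11.15 with pandas 2.3.3 and NumPy 2.4.6 made the tables, SciPy 1.17.1 the exact tests and Matplotlib 3.10.9 the figures. All chains are accounted for. Values per mouse are given for types I, III, IV, V and VI, for Col8a1, Col13a1, Col14a1, Col15a1 and Col18a1, for the 3 largest rises and falls, and, in the related lists, up to 4 called genes per list are named. Plod1, 1 more call in its list, and Col8a2, the partner of Col8a1, were added after their values were seen. The members and the gene lists were chosen with earlier results of these data known. The ZT7 libraries are not analysed here.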

Additional observations from a re-analysis of the deposited data

How the results depend on the processing

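The alternatives were other scalings, other filters, DESeq2, offsets for GC content and exon length, a replicate block and each mouse left out in turn. No chain was called with DESeq2 size factors, upper-quartile factors, TMM without immunoglobulin genes, the exon length offset or the replicate block. Col3a1 and Col5a2 were called without a filter (2 chains) and by DESeq2 (2), and Col5a2 alone with at least 10 counts in every library (1) and with the GC offset (1). Leaving out a mouse gave 0 to 3 called chains, the 3 without KO4. The 1089 genes called became 1831 by DESeq2, 109 with the fold threshold, and 1 (without WT5) to 1278 (without KO4) when a mouse was left out. The 13 related genes called became 23 by DESeq2 and 0 to 19 when a mouse was left out. Replicate numbers were tried as a block although the labels do not say that they pair mice. Deviations of same-numbered mice correlated at -0.032, -0.154 and -0.021, within the range of differently numbered mice, -0.229 to 0.261. With so few mice these correlations cannot decide whether same-numbered mice shared a day or batch. With the replicate block 66 genes, 2 related genes and 0 chains were called.

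The median of type VI became -0.19 with at least 10 counts in every library. With a mouse left out, medians ranged from -0.18 to -0.07 for all chains, -0.24 to -0.06 for fibrillar, -0.22 to -0.10 for type IV, -0.13 (without KO5) to 0.51 for type VI and -0.14 to -0.04 for fibril-associated chains. Chains near 0 changed sign. Col4a5 was -0.01 without a filter, 0.00 by DESeq2 and 0.00 with the replicate block. With a mouse left out, the log2 fold change ranged from -0.10 to 0.09 for Col4a5, -0.05 to 0.14 for Col18a1, -0.06 to 0.17 for Col4a6, -0.22 to 0.00 for Col5a1, 0.00 to 2.53 for Col6a4 and -0.10 to 1.45 for Col6a5. The difference in log2 ratio ranged from -0.11 to 0.05 for Col1a1 to Col1a2, from -0.04 to 0.00 for Col4a1 to Col4a2, and from -0.04 to 0.03 for Col6a3 to Col6a1. With the longest transcript, the ratio of RPKM in WT mice moved from 0.983 to 0.468 for Col1a1 to Col1a2, from 1.07 to 1.71 for Col3a1 to Col1a1, from 1.06 to 1.16 for Col4a1 to Col4a2 and from 1.67 to 1.85 for Col4a3 to Col4a4. The SE was under 0.2 for 27 of the 36 chains, and largest for Col6a4, Col6a5 and Col6a6, which were under 1 CPM in the WT mice. Where a call changed, the cause was not tested.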
